A study of Mus musculus with 6 samples.

Results

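Chemokines and their receptors were described in single cells of the mouse femoral fracture callus at 14 days post fracture (dpf). The genes were chosen by symbol. Every numbered Ccl, Cxcl, Ccr and Cxcr gene was taken, together with Cx3cl1, Cx3cr1, Xcl1, Xcr1, Pf4, Ppbp and the atypical receptor genes Ackr1, Ackr2, Ackr3 and Ackr4. The rule found 58 genes among the 52081 that all 6 libraries list, of which 36 code for ligands, 18 for receptors and 4 for atypical receptors. No measured value entered the rule. At least 1 UMI (a unique molecular identifier, which stands for 1 captured transcript) was found for 57 of the 58 genes, and none for Ccl26.

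Calluses came from 12-week-old mice, male by the methods of the study, and each group had 3 libraries. The control group was labelled wt by the submitters and is Piezo1 f/f in the study. The knockout group was labelled Col2CreERT with Piezo3-/- in the sample records and with Piezo1-/- in the series record. The study states that tamoxifen was given to both groups, at 75 mg/kg on 5 days from day 5 after fracture. It activates a Cre driven by Col2a1 regulatory sequences, which aims at chondrocytes, so other callus cells are not meant to be deleted. The comparison asks what a loss of Piezo1, a mechanically gated ion channel, in chondrocytes does to the callus.

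Chemokines are small secreted proteins that guide the movement of leukocytes and progenitor cells. They bind membrane receptors that signal through inhibitory G proteins, and atypical receptors that take up or present chemokines without that signal. In a healing bone they are known for the recruitment of neutrophils and monocytes, for the retention of blood progenitors in marrow (Cxcl12 and Cxcr4) and for the recruitment of osteoclast precursors.

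The cells were clustered without these genes, and clusters were called after a cell type ("like") only from lists of marker genes. The 41652 cells used gave chondrocyte-like (8891 cells), endothelial-like (5925), fibroblast-like (5118), neutrophil-like (5019), macrophage-like (4480), osteoblast-like (2332), pericyte-like (1669), osteoclast-like (1550), monocyte-like (1510), T or NK-like (840) and dendritic-like (493) classes, besides smaller ones and clusters that stayed unnamed. Libraries differed in makeup, with chondrocyte-like cells at 8.39% to 57.4% of a control library and 9.27% to 52.1% of a knockout library. Levels are given in UPM, the UMIs of a gene per 1000000 UMIs of all genes in the same class and library. Piezo1 in chondrocyte-like cells was at 69.8, 44.3 and 55.6 UPM in control libraries 1 to 3 and at 135, 52.3 and 48.6 in knockout libraries 1 to 3, so the targeted gene was not lower in the knockout group, although 3′ counts take in transcripts with a deleted exon. Knockout library 3 goes against the male sex given, with Xist at 578 UPM against at most 0.170 in the others, and 4 Y-linked genes together at 0.0324 against at least 108. In chondrocyte-like cells of knockout library 2, Col2a1 was at 3369 UPM against 24244 to 61651 in the others. Col2a1 was also counted in neutrophil-like cells, at 13.4 to 3127 UPM, and the part of free RNA in low levels of other genes was not tested.

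As 3′ UMIs count transcript ends, they were not divided by transcript length. A class was measured in a library only with at least 20 cells, and the class with the highest mean over at least 4 libraries is called the leading class. Some values rest on few cells. Control library 1 had 24 monocyte-like, 21 T or NK-like and 43 neutrophil-like cells, against up to 553, 301 and 2040 in other libraries. Means are given ± SD over libraries. In their leading class 46 of the 58 genes reached a mean of 10 UPM and 26 reached 100, namely 17 ligands, 8 receptors and Ackr1. Levels across classes are a description with no test, since the classes are clusters of the same cells.

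**Figure D1:**
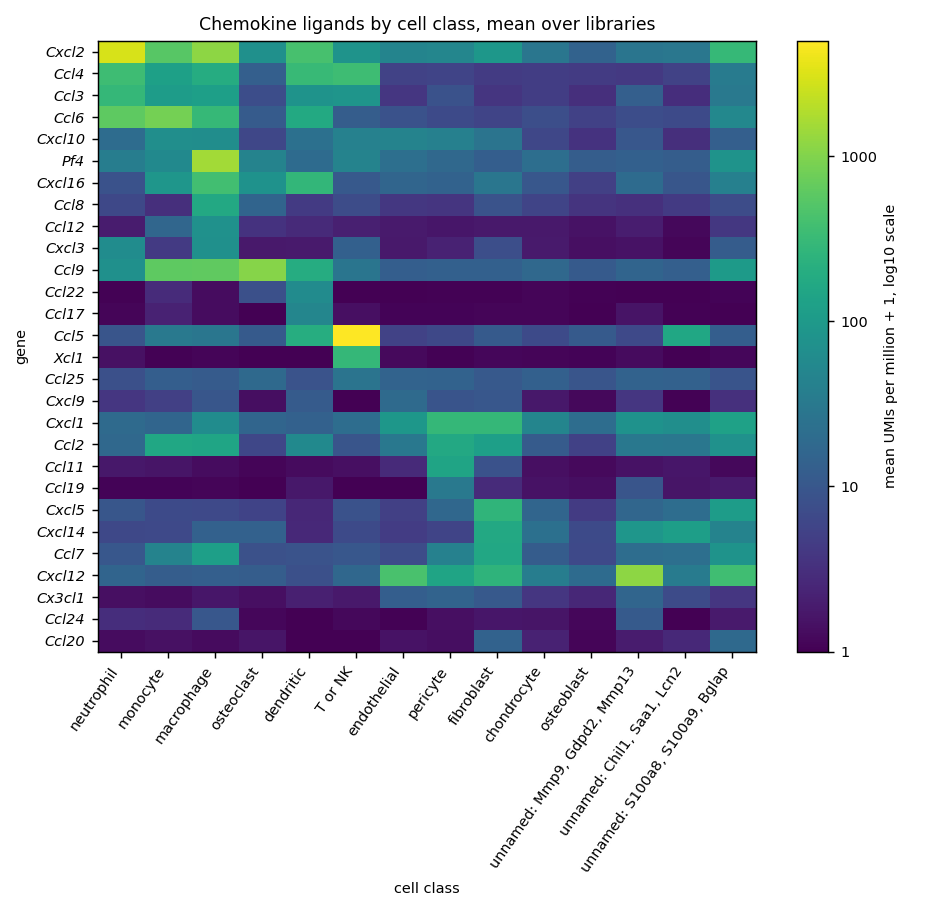
Mean level over libraries of the 28 ligands that reached 10 UPM in their leading class, by cell class, coloured by the mean UPM plus 1 on a log10 scale. High ligands lie in the myeloid classes (Cxcl2, Pf4, Ccl9, Ccl6), in T or NK-like cells (Ccl5, Xcl1) and in vascular and fibroblast-like classes (Cxcl1, Cxcl12, Ccl11, Cxcl14).

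**Figure D2:**
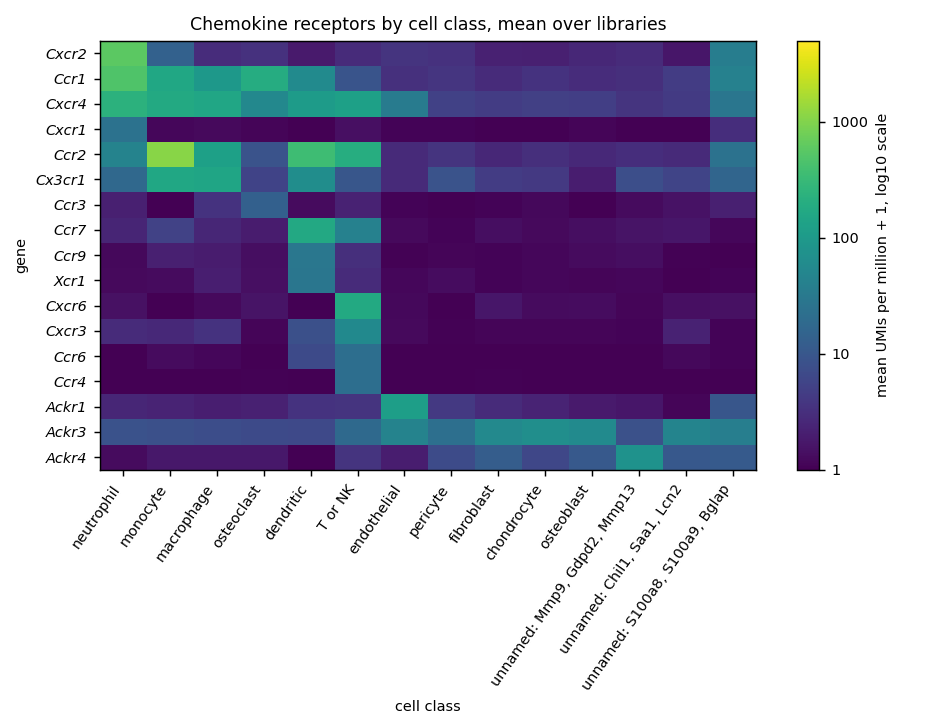
Mean level over libraries of 17 receptors, 3 atypical ones included, that reached 10 UPM in their leading class, by cell class, on the same colour scale. The 14 typical receptors drawn were led by blood-derived classes, and Ackr1, Ackr3 and Ackr4 by endothelial-like, chondrocyte-like and unnamed stromal cells.

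The ligands of Cxcr2, which draw neutrophils, were led by different classes although their genes are neighbours. The run from Cxcl5 to Cxcl2 (chr5:90759360-90905938 on GRCm38, GENCODE M21) holds 7 of the 58 genes. Of these, 5 reached 10 UPM, with 4 leading classes: Cxcl5 was led by fibroblast-like, Pf4 and Cxcl3 by macrophage-like, Cxcl1 by pericyte-like and Cxcl2 by neutrophil-like cells. The bases before the start of 4 of them are shown because 3 share a motif that the Pf4 window lacks. The windows are the 200 bases before the RefSeq start on GRCm38.p6, all on the plus strand, at chr5:90891045-90891244 for Cxcl1, chr5:90903699-90903898 for Cxcl2, chr5:90785901-90786100 for Cxcl3 and chr5:90772235-90772434 for Pf4, written 5′ to 3′. Capitals mark an NF-kB type motif (GGG, any 2 bases, then TTTCC) on either strand, and TATAAA on the gene's strand.
Cxcl1: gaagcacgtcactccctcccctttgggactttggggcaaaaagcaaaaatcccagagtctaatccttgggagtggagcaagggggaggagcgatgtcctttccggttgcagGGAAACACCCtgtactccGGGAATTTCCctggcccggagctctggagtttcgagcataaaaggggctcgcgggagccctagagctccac
Cxcl2: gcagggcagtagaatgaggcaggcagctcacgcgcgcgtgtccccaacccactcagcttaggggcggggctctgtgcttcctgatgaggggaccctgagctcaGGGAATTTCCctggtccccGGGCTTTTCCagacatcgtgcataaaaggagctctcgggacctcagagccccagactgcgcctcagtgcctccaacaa
Cxcl3: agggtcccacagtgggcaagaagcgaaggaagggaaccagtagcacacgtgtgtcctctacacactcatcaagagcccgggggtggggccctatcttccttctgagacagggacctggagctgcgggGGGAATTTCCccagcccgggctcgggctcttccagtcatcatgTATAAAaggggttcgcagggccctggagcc
Pf4: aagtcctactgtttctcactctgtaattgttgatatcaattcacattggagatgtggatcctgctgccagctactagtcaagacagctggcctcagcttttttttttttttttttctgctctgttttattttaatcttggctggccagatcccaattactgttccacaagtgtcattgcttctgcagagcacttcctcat
Cxcl1 and Cxcl2 held 2 matches each to the NF-kB type motif and Cxcl3 held 1, and no match to one motif overlapped the other. The RefSeq table had promoters for 43 of the 58 genes. Of the 26 ligand windows 5 (19.2%) held this motif, Ccl9 and Ccl20 being the other ligands, against 1.18% of all 32851 windows of the table. TATAAA was in 38.5% of the ligand windows against 6.27% of all. Of the 15 receptor windows 1 held the NF-kB type motif (Ccr3) and 1 held TATAAA (Cxcr4), 6.67% in both cases, and of the 4 windows of atypical receptors 0 and 2 did (Ackr3 and Ackr4). The motif was searched with the levels known, and a match of letters shows no binding.

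Cxcl2, a neutrophil attractant of early inflammation, reached 2871, 3086 and 2178 UPM in neutrophil-like cells of control libraries 1 to 3 and 7457, 554 and 1687 in those of knockout libraries 1 to 3. Knockout library 1 was the highest and knockout library 2 the lowest, and the groups overlapped. Macrophage-like cells followed with a mean of 1157 ± 574 (n = 6). Of all Cxcl2 UMIs in a library, neutrophil-like cells held 18.98% to 74.7% and macrophage-like cells 16.01% to 60.2%.

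The neutrophil-like class was not uniform. In the cluster led by Il1b, Retnlg and Ifitm1, Cxcl2 stood at 7499 ± 3131 (n = 6), against 379 ± 186 (n = 4) in the cluster led by Ngp, S100a9 and S100a8 and 126 ± 89.9 (n = 4) in the one led by Camp, Ngp and Elane, granule genes of immature cells. The receptor Cxcr2, through which neutrophils leave the marrow, followed the same order, with 1093 ± 452, 334 ± 167 and 20.6 ± 13.4. Ccr1, a receptor for Ccl3, Ccl6 and Ccl9, did likewise with 911 ± 376, 223 ± 75.9 and 42.6 ± 13.8. In each of the 4 libraries where all 3 clusters were measured, Cxcl2, Cxcr2 and Ccr1 fell in this order. Cxcr4, the receptor that holds neutrophils in marrow, was highest in the same cluster at 488 ± 247, against 84.01 ± 23.5 and 67.7 ± 32.2.

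Over the whole neutrophil-like class, Cxcr2 was at 1013, 589 and 261 UPM in the control and 1157, 296 and 142 in the knockout libraries. In both groups replicate 1 was the highest, and the groups overlapped. The granule gene Camp was at 11139.5, 20260.1 and 20424 and 314, 24359.9 and 18029 in the same libraries, lowest in replicate 1 of both groups, and its part in the Cxcr2 level was not tested. Neutrophil-like cells held 84.4% to 95.2% of all Cxcr2 UMIs. Cxcr1, the other receptor of this kind, had a mean of 23.8 ± 23.9 in the same class.

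Cxcl1 and Cxcl5, ligands of Cxcr2 made by tissue cells, were led by vascular and stromal classes. Cxcl1 in pericyte-like cells was at 117, 380.1 and 365 UPM in the control and 526, 34.8 and 319 in the knockout libraries. Its mean there (290.3 ± 182) was close to that in fibroblast-like cells (285 ± 277). By library, the pericyte-like value was the higher one in all but control library 3. Endothelial-like cells followed with 88.7 ± 57.1. Fibroblast-like cells held 57.9% to 95.2% of all Cxcl5 UMIs. Cxcl3 was split between macrophage-like (71.7 ± 108) and neutrophil-like cells (62.7 ± 127).

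In fibroblast-like cells, 4 inflammatory ligands were high in the same libraries, 1 of each group. Cxcl5 was at 13.1, 30.4 and 662 UPM in the control and 870.0, 1.22 and 3.46 in the knockout libraries. Ccl7, a monocyte attractant, was at 16.04, 82.4 and 595 against 244, 14.8 and 32.9. Both genes were highest in control library 3 and knockout library 1 within their groups. Ccl2, the main ligand of Ccr2, was at 18.1, 37.8 and 408 against 188, 8.66 and 57.7. Cxcl1 was at 34.9, 203 and 746 against 443, 8.10 and 278. For all 4 ligands the groups overlapped, and knockout library 2 was the lowest of the 6. The acute phase gene Saa3 moved with them, at 45.9, 4.65 and 10769 against 4129, 4.33 and 2.36, as did Mmp3, a matrix protease, at 14.3, 20.7 and 994 against 963, 5.66 and 6.52. Of the 1117 cells in the cluster led by Mmp3, Saa3 and Prg4, 738 came from control library 3, and the part of this cluster in the ligand levels was not tested.

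**Figure D3:**
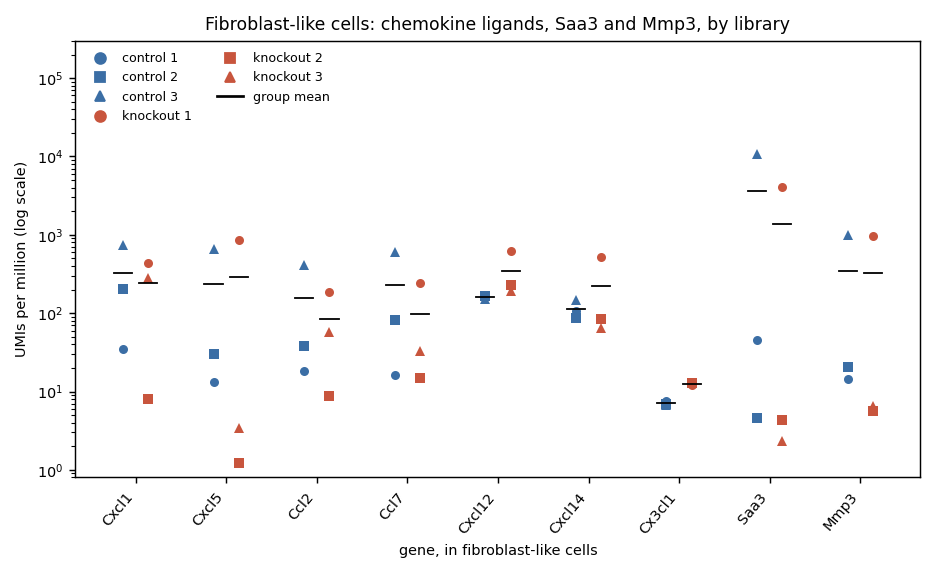
Levels of 7 chemokine ligands, Saa3 and Mmp3 in fibroblast-like cells of each library, in UPM on a log scale, with colours for the genotype labels, symbols for the replicates and bars for the group means. Control library 3 and knockout library 1 stand high for Cxcl1, Cxcl5, Ccl2, Ccl7, Saa3 and Mmp3. The 3 knockout libraries lie above the 3 control libraries for Cx3cl1 and Cxcl12, as they do for 3.53% of all genes tested in this class.

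The receptor of the monocyte route was led by monocyte-like cells, and its ligands were spread over several classes, monocyte-like cells included. Ccr2, the receptor that brings monocytes out of marrow and into injured tissue, was at 1418, 1205 and 1097 UPM in monocyte-like cells of the control and 1115, 1064 and 637 in those of the knockout libraries. The groups overlapped, and knockout library 3 was the lowest. Dendritic-like (353 ± 124, n = 4), T or NK-like (202 ± 80.3) and macrophage-like cells (124 ± 60.4) carried less. Ccl2 was spread over several classes, with 170.3 ± 94.1 in pericyte-like, 159 ± 51.7 in monocyte-like, 149 ± 82.3 in macrophage-like and 119.7 ± 156 in fibroblast-like cells. The highest of these classes was not the same in every library. Ccl7 was led by fibroblast-like cells (164 ± 228) and followed by macrophage-like cells (119.7 ± 57.8), which led without control library 3. Ccl8 and Ccl12, whose genes lie near Ccl2 and Ccl7 on chromosome 11, were led by macrophage-like cells, at 170.1 ± 92.9 and 74.04 ± 29.3.

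Ccl8 differed between macrophage-like clusters. In the cluster led by C1qa, C1qb and Cd74 it stood at 394 ± 207, and in the one led by Lyz2, Ctss and Gpnmb at 124 ± 150.2. It was higher in the former in 5 of 6 libraries, control library 1 being the exception with 387 against 413. Cx3cr1, the fractalkine receptor of resident macrophages, was higher in the former in 6 of 6 libraries (301 ± 189 against 95.6 ± 87.3). Cxcl3 was higher in the Lyz2 cluster in 6 of 6 (122 ± 189 against 5.31 ± 7.39).

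Pf4, a chemokine best known from platelet granules, was at 1242, 1716 and 2036 UPM in macrophage-like cells of the control and 2031, 1009.5 and 1302 in those of the knockout libraries. The groups overlapped, and the 2 macrophage-like clusters above had similar means (2060.2 ± 565 in the Lyz2 and 1746 ± 566 in the C1qa, C1qb and Cd74 cluster). Macrophage-like cells held 81.3% to 94.8% of all Pf4 UMIs. Ppbp, the other platelet chemokine, had a mean of 5.75 ± 7.30 in the same class.

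Further CC ligands were led by several blood-derived classes. Ccl9, which acts through Ccr1, was at 1371, 1091 and 719 UPM in osteoclast-like cells of the control and 1066, 1148 and 1034 in those of the knockout libraries. The groups overlapped, and control library 3 was the lowest. Macrophage-like (629.8 ± 164) and monocyte-like cells (594 ± 152) followed. Ccr1 itself was led by neutrophil-like (475 ± 357) and followed by osteoclast-like cells (194 ± 46.4), so both ligand and receptor were counted in the osteoclast-like class. Ccr3, a receptor best known from eosinophils, was low and highest in the same class (12.8 ± 6.59). Ccl6, a close relative of Ccl9, was led by monocyte-like cells (852 ± 226), with 595 ± 277 in neutrophil-like cells.

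Ccl3 and Ccl4, neighbours on chromosome 11 and both attractants of monocytes and T cells, were led by neutrophil-like cells. Ccl3 was at 175, 356 and 436 UPM there in the control and 555, 61.5 and 163 in the knockout libraries. Ccl4 was at 142, 532 and 822 against 401, 74.1 and 170.2. Both were lowest in knockout library 2, and the groups overlapped. When the cells were clustered at resolution 0.4 or 1.2, both genes were led by a myeloid progenitor-like class. No class had that name in the clustering used here. Its neutrophil-like class took in the cluster led by Camp, Ngp and Elane, with the progenitor markers Prtn3, Mpo and Ctsg among its leading genes. The part of that cluster in the Ccl3 and Ccl4 levels was not tested. For Ccl4, T or NK-like (354 ± 193) and neutrophil-like cells (357 ± 286) did not differ beyond the spread.

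Ccl5, a ligand made by cytotoxic lymphocytes, had the highest class mean of the 58 genes. In T or NK-like cells it stood at 4076, 8090.5 and 3603 UPM in the control and 1576, 6808 and 4963 in the knockout libraries, and the groups overlapped. The class is small, and its share of all Ccl5 UMIs ranged from 30.8% to 86.4%. Xcl1, which attracts cross-presenting dendritic cells, was at 673, 298 and 198 in T or NK-like cells of the control and 53.1, 441 and 70.3 in those of the knockout libraries. This class held 72.00% to 92.4% of all Xcl1 UMIs. Its receptor Xcr1 was led by dendritic-like cells (27.6 ± 22.6, n = 4).

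T or NK-like cells led 4 and dendritic-like cells 3 of the 15 receptors that reached 10 UPM. Cxcr6, a receptor of tissue-resident lymphocytes, was at 136, 121 and 197 in T or NK-like cells of the control and 212, 86.7 and 285 in those of the knockout libraries, and the next class had a mean of 0.702. Its ligand Cxcl16 was led by macrophage-like (383 ± 80.6) and followed by dendritic-like cells (280.4 ± 81.8, n = 4). Cxcr3, the receptor for interferon-induced ligands, was at 55.7 ± 20.2 in T or NK-like cells. Of its ligands, Cxcl10 was at 66.4 ± 83.4 in monocyte-like and 63.2 ± 20.3 in macrophage-like cells, and Cxcl9 at 18.1 ± 9.87 in endothelial-like cells.

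Ccr7, which guides dendritic cells and naive lymphocytes to lymph nodes, was at 242 and 135 UPM in dendritic-like cells of control libraries 2 and 3 and at 80.1 and 217 in those of knockout libraries 2 and 3. B-like cells, measured in control library 2 and knockout library 2 only, had 374 and 126. The Ccr7 ligand Ccl19 was led by pericyte-like cells (29.8 ± 35.2), but it has near-identical copies in the mouse genome among which the counting could split its reads. Ccl17 and Ccl22, ligands of Ccr4, were led by dendritic-like cells (48.2 ± 42.2 and 59.01 ± 58.5, n = 4), and Ccr4 by T or NK-like cells (20.4 ± 25.1). Ccr9 was led by dendritic-like (28.7 ± 22.3) and Ccr6 by T or NK-like cells (20.6 ± 11.1). Cxcr5, the receptor of B cell follicles, was at 103 and 39.5 in the 2 libraries with B-like cells. Its ligand Cxcl13 was at 1.53 ± 2.59 in its leading class.

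Cxcl12, the stromal ligand that holds Cxcr4-bearing blood progenitors, had several sources. It was led by an unnamed stromal cluster with Mmp9, Gdpd2 and Mmp13 as leading genes, at 587, 3387 and 1248 UPM in the control libraries and at 461 and 221 in knockout libraries 2 and 3, knockout library 1 having under 20 such cells. All 3 control values lay above both knockout values, and 33.8% of all genes tested in this cluster had groups that did not overlap. Endothelial-like cells were steadier, at 527, 474 and 341 against 498, 369 and 371. Within them the cluster led by Ptprb, Igfbp3 and Stmn2, with the arterial gene Gja4 among its top genes, had 1520.1 ± 424 (n = 6), against 344 ± 139 in the cluster led by Plvap, Flt1 and Col4a1 and 17.6 ± 6.03 (n = 3) in the one led by Ccl21a, Mmrn1 and Nts. Among fibroblast-like clusters, the one led by Clec3b, Mfap5 and Dpt had 804 ± 445, and the next, led by Mmp3, Saa3 and Prg4, 238 ± 226.

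Cxcr4 was carried by many blood-derived classes. In neutrophil-like cells it was at 371, 267 and 258 in the control and 341, 68.7 and 99.4 in the knockout libraries. Monocyte-like (176 ± 66.6), macrophage-like (153 ± 69.2) and T or NK-like cells (125 ± 73.3) had lower means. In every library the T or NK-like value lay below the neutrophil-like one. An unnamed cluster led by Cybb, Pou2f2 and Coro1a led Cxcr4 at resolution 1.2 and without control or knockout replicate 1. The scavenger of Cxcl12, Ackr3, had another distribution, with 66.9 ± 36.1 in chondrocyte-like, 58.7 ± 27.6 in osteoblast-like and 54.9 ± 28.1 in fibroblast-like cells. In chondrocyte-like cells it was at 87.2, 45.5 and 45.6 against 102, 16.4 and 105, with knockout library 2 the lowest. Its highest cluster means were 193 ± 98.4 (n = 4) in the cluster led by Ihh, Col10a1 and Snorc, genes of hypertrophic chondrocytes, and 174 ± 117 (n = 5) in the osteoblast-like cluster led by the osteocyte gene Dmp1 with Ptprz1 and Ifitm5.

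The atypical receptors lay in parts of the vessel and stromal classes. Ackr1, which carries chemokines across venular endothelium, was at 111, 197 and 88.6 UPM in endothelial-like cells of the control and 155, 73.95 and 83.8 in those of the knockout libraries. In the cluster led by Selp, Fabp4 and Ptprb, Selp being a venular adhesion gene, it was at 543, 743 and 623 against 588, 793 and 841. The lowest of these values exceeded every value of the other endothelial-like clusters, of which the Plvap, Flt1 and Col4a1 cluster had 29.5 ± 24.1 and the Ptprb, Igfbp3 and Stmn2 cluster 0.780 ± 1.21. Ackr2, a scavenger of inflammatory Ccl ligands in lymphatic endothelium, was low in the class as a whole (9.15 ± 4.42) and reached 122 ± 50.03 (n = 3) in the cluster led by Ccl21a, Mmrn1 and Nts, with the lymphatic gene Prox1 among its top genes. Ackr4, a scavenger of Ccl19 and Ccl25, was led by the unnamed Mmp9, Gdpd2 and Mmp13 cluster, at 85.8, 89.9 and 63.4 in the control and 88.4 and 53.9 in the knockout libraries.

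Other ligands were led by fibroblast-like, pericyte-like or unnamed cells. Cxcl14, a chemokine of epithelia and stroma, was at 108, 86.7 and 146 in fibroblast-like cells of the control and 528, 83.1 and 64.6 in those of the knockout libraries. Its cluster means ranged from 22.05 ± 19.6 in the cluster led by Tnn, Ccn3 and Aspn to 736 ± 675 in the one led by Clec3b, Mfap5 and Dpt. Ccl11, an eosinophil attractant, was at 80.7, 206 and 280.5 in pericyte-like cells against 228, 2.04 and 71.3, knockout library 2 being the lowest. Cx3cl1, the membrane-bound ligand of Cx3cr1, was low, at 15.1 ± 2.79 in the unnamed Mmp9 cluster, 13.96 ± 3.12 in pericyte-like and 11.9 ± 3.25 in endothelial-like cells. Its highest cluster was the endothelial-like one led by Ptprb, Igfbp3 and Stmn2 (39.2 ± 7.67). Cx3cr1 was at 158 ± 120.0 in monocyte-like and 149.9 ± 95.03 in macrophage-like cells. The unnamed cluster led by Cybb, Pou2f2 and Coro1a led Cx3cr1 at resolution 1.2 and without control replicate 1, knockout replicate 1 or knockout replicate 3. Ccl24, an eosinophil attractant like Ccl11, was at 10.3 ± 12.4 in the Mmp9 cluster and 9.23 ± 10.8 in macrophage-like cells. Ccl20, the ligand of Ccr6, was at 17.3 ± 37.1 in an unnamed cluster led by S100a8, S100a9 and Bglap, where control library 3 alone was above 10. Ccl25, the ligand of Ccr9, was at 25.6 ± 14.7 in T or NK-like and 17.6 ± 4.23 in osteoclast-like cells, within the spread.

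Besides Ccl26, 11 genes stayed below 10 UPM in their leading class. These were Ccl1, Ccl28, Cxcl11, Cxcl13, Cxcl15, Cxcl17, Ppbp, Ccr8, Ccr10, Cxcr5 (B-like cells, with 2 libraries, not being counted) and Ackr2. Of Ccl1 only 4 UMIs were counted in all cells, of Cxcl15 5 and of Ccr8 9, too few to place them in a class.

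**Figure D4:**
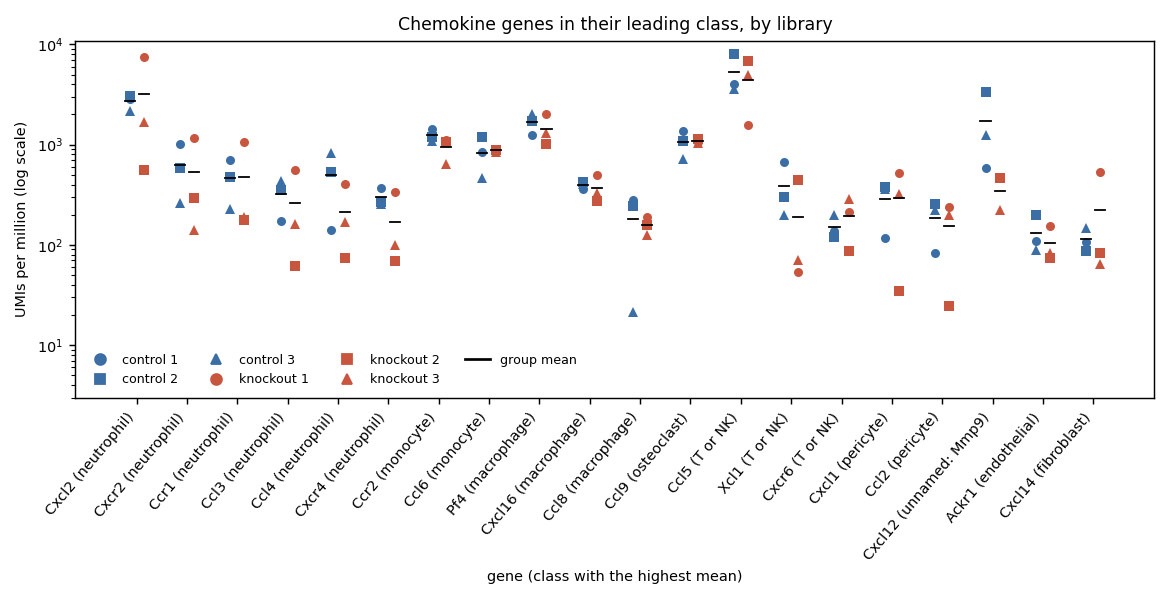
Levels of 20 genes in their leading class in each library, in UPM on a log scale, with colours for the genotype labels, symbols for the replicates and bars for the group means. Control and knockout libraries overlap for each gene but Cxcl12, which in the unnamed Mmp9 cluster is higher in the control libraries.

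Neighbouring genes with different leading classes were also found outside chromosome 5. The run from Ccl2 to Ccl8 (chr11:82035571-82116799) held 5 members with 3 leading classes. The run from Ccl5 to Ccl4 (chr11:83525778-83664683) held 5 members with 4, T or NK-like for Ccl5, osteoclast-like for Ccl9, monocyte-like for Ccl6 and neutrophil-like for Ccl3 and Ccl4. Cxcl1 on chromosome 5 and Ccl2, Ccl7, Ccl3 and Ccl4 on chromosome 11 had another leading class under some alternative settings. The numbers of leading classes in the runs can change with these.

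Between the genotype labels no chemokine gene passed the threshold. The quasi-likelihood test of edgeR was run over all genes on the UMIs summed per library, in 13 classes and over all cells. In each of these 14 fits 0 members, and 0% of all genes tested, reached an adjusted p (Benjamini-Hochberg) below 0.05, and DESeq2 called 0 members in each. At an unadjusted p below 0.05, 32 of 295 tests of members in the 13 classes passed, 24 with a higher and 8 with a lower level in the knockout libraries. Of all genes tested in the same 13 fits 4.12% did, 2.2% higher and 1.92% lower. Without replicate 1 of both groups, more members were lower than higher in several classes. In macrophage-like cells 9 of 32 were then lower and 0 higher (13.9% of all genes passed), and over all cells 12 of 51 and 0 (7.14%). In neutrophil-like cells 4 of 25 were lower and 1 higher (9.8%). In pericyte-like cells 3 of 23 were lower and 4 higher (13.1%), and in dendritic-like cells 0 of 22 and 2 (6.28%). The 13 classes share their 6 libraries, so these are not independent results.

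**Figure D5:**
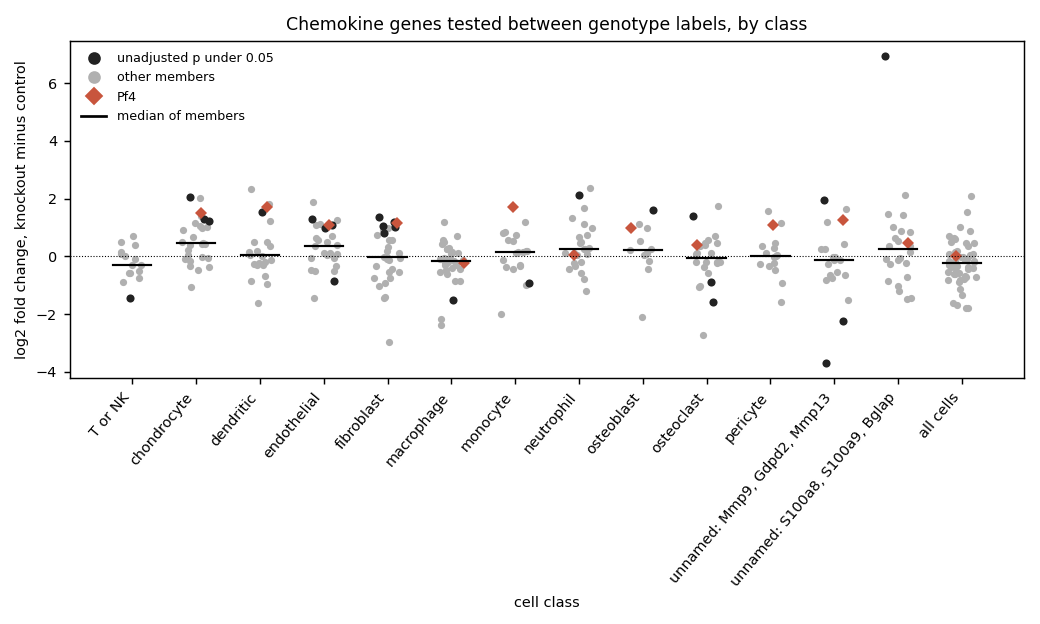
Log2 fold changes, knockout minus control, of the members tested in each of the 13 classes and over all cells, where dark points have an unadjusted p below 0.05, diamonds are Pf4 whatever its p and bars are medians over members. The medians lie between -0.28 and 0.47, and Pf4 lies above 0 in 11 of 12 classes.

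In fibroblast-like cells 6 of 31 members had an unadjusted p below 0.05 in edgeR's test, all higher in the knockout libraries. Of all genes tested there 2.72% did, and 1.78% did with a higher level. The 6 were Cx3cl1, Pf4, Ccr1, Cxcr2, Cxcl12 and Ccl6. Ccr1, Cxcr2 and Ccl6, led by neutrophil-like or monocyte-like cells, were low there. Their means were 1.06 and 2.70, 0.718 and 1.60, and 3.07 and 6.22 UPM in the control and knockout libraries. The part of blood cell RNA in these means was not tested. Without replicate 1 of both groups, which was processed with another version of Cell Ranger, 2 were higher and 4 lower of 30 in this class, against 11.9% of all genes. Leaving out any 1 library other than knockout library 2 gave 3 to 7 members with a higher and 1 or 2 with a lower level. In these fits 1.63% to 14% of all genes passed. Without knockout library 2 it was 4 higher and 0 lower of 36, against 1.1% of all genes. In chondrocyte-like cells, the class that the Cre aims at, it was 4 of 27 (Pf4, Cxcl14, Ccl3 and Ccl9), all higher. Of all genes 2.14% passed there, 1.2% with a higher level. There it was 2 higher and 1 lower of 24 without replicate 1 of both groups (7.4% of all genes), and 0 of 27 when the libraries were clustered without integration (1.11% of all genes). In endothelial-like cells it was 5 of 27 against 5.57%, and in the unnamed Mmp9 cluster 4 of 20 against 12.1%. The counts were 3 of 24 in osteoclast-like cells against 4.34%, 2 of 22 in dendritic-like cells against 6.28% and 2 of 13 in osteoblast-like cells against 3.71%. A single member passed in macrophage-like (1 of 31, 1.56% of all genes), monocyte-like (1 of 20, 2.39%), neutrophil-like (1 of 25, 2.4%), pericyte-like (1 of 16, 4.12%) and T or NK-like cells (1 of 15, 6.45%) and in the S100a8, S100a9 and Bglap cluster (1 of 24, 1.54%). Over all cells 0 of 51 members did by edgeR's test, against 1.52% of all genes, and in such sums fewer cells of a type and less RNA per cell cannot be told apart.

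The chondrocyte-like class differed in makeup between libraries. Its cluster led by Mir6236, Col10a1 and Hapln1 held 4095 cells with a median of 777 UMIs, few for the class, and the macrophage gene Lyz2 was among its 10 leading genes. It made up 70.5%, 11.3% and 26.7% of the class in the control and 74.9%, 62.00% and 14.1% in the knockout libraries. The cluster led by Ucma, Col2a1 and Matn3 made up 13.4%, 50.8% and 49.8% against 10.8%, 2.58% and 37.9%, knockout library 2 being the lowest. With stricter cell filters (a minimum of 1000 genes, a mitochondrial share of 10% or less) 4 of 24 members had an unadjusted p below 0.05 in chondrocyte-like cells, all higher, against 2.01% of all genes. These filters do not balance the clusters between libraries, and the part of the makeup in these levels was not tested.

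The control and knockout libraries did not overlap for 7 of 31 members in fibroblast-like cells, all higher in the knockout libraries. The same held for 5.53% of all genes tested there, and for 3.53% with a higher level. Of the 7, Ccr1, Cxcr2, Ccl3 and Ccl19 had group means of at most 3.42 UPM. In chondrocyte-like cells the count was 4 of 27, also all higher, against 5.67% of all genes and 2.23% with a higher level. In endothelial-like cells 5 of 27 members did not overlap against 11.5%, in osteoclast-like cells 3 of 24 against 8.21%, in dendritic-like cells 3 of 22 against 39.5%, in T or NK-like cells 2 of 15 against 12% and in the unnamed Mmp9 cluster 4 of 20 against 33.8%. The count was 0 of 31 in macrophage-like cells against 4.74% and 0 of 20 in monocyte-like cells against 7.05%. It was 1 of 25 in neutrophil-like (7.74% of all genes), 1 of 13 in osteoblast-like (8.4%) and 1 of 16 in pericyte-like cells (9.4%), 1 of 24 in the S100a8, S100a9 and Bglap cluster (14.9%) and 1 of 51 over all cells (4.58%).

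Pf4 was higher in the knockout libraries at an unadjusted p below 0.05 in 7 of 12 classes, all outside its main source. T or NK-like cells were not among the 12. There Pf4 was at 16.02, 12.9 and 172 UPM in the control and 28.3, 21.97 and 15.6 in the knockout libraries. It was highest in control library 3, and the groups overlapped. In chondrocyte-like cells it was at 11.99, 6.47 and 12.9 UPM in the control and 45.1, 30.7 and 15.4 in the knockout libraries (log2 fold change 1.52 ± 0.40 (SE), edgeR adjusted p = 1). In fibroblast-like cells it was at 6.60, 4.41 and 10.7 against 17.99, 17.4 and 14.6 (1.15 ± 0.36, edgeR adjusted p = 0.996). The groups did not overlap in either class, as for 5.67% and 5.53% of all genes tested there. In macrophage-like cells the log2 fold change was -0.24 ± 0.37. The summed level of 11 macrophage markers was also higher in the knockout libraries, at 95.9, 38.2 and 84.6 against 139, 331 and 114 in chondrocyte-like and 52.9, 31.2 and 48.6 against 70.4, 181 and 118 in fibroblast-like cells. The part of macrophage RNA in these Pf4 values was not tested.

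Ccl9, Ccl6 and Ccl3, ligands that blood-derived classes led, also lay above 0 in most classes, in 10 of 13, 9 of 11 and 9 of 11. Other ligands led by such classes varied, with Cxcl16 above 0 in 9 of 12, Cxcl2 in 7 of 13, Cxcl10 in 4 of 11 and Ccl4 in 2 of 10. The classes share their 6 libraries, so these counts are not independent. In osteoblast-like cells Ccl9 had means of 5.42 ± 0.206 in the control and 14.6 ± 6.26 in the knockout libraries (1.60 ± 0.44, edgeR adjusted p = 0.953). The summed macrophage markers there were at 88.2, 59.03 and 81.7 against 125, 148 and 129, and their part was not tested.

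Cx3cl1 in fibroblast-like cells was at 7.63, 6.98 and 6.82 UPM in the control and 12.2, 12.9 and 12.8 in the knockout libraries. The groups did not overlap, as for 5.53% of all genes tested in this class, 3.53% with a higher level. The spread within each group was small, with a log2 fold change of 0.81 ± 0.23 (edgeR adjusted p = 0.996). Of the 31 members tested there, Cx3cl1 had the smallest p. It lay above 0 in 2 of the 5 classes where it was tested. In endothelial-like cells Cx3cl1 was lower in the knockout libraries, with means of 14.2 and 9.64 (-0.51 ± 0.27, edgeR adjusted p = 0.777). In the Mmp9 cluster it was lower too, with 16.6 and 12.8 (-0.27 ± 0.30, edgeR adjusted p = 0.719). The groups did not overlap in either, as for 11.5% and 33.8% of all genes tested there. Cxcl12 in fibroblast-like cells was at 168, 165 and 153 against 613, 228 and 191 (1.05 ± 0.44, edgeR adjusted p = 0.996), knockout library 1 being the highest. Cxcl14 in chondrocyte-like cells had means of 8.93 ± 7.10 and 35.7 ± 5.97 (2.05 ± 0.70, edgeR adjusted p = 1).

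Cxcl12 in the unnamed Mmp9 cluster went the other way. Its log2 fold change was -2.23 ± 0.73 (edgeR adjusted p = 0.364) over 3 control and 2 knockout libraries, and 33.8% of all genes tested there had groups that did not overlap. With no filter on low counts the adjusted p of edgeR was 2.1e-05 (log2 fold change -2.16), and with the replicate number as a block it was 0.0363 (log2 fold change -2.58). Without replicate 1 of both groups it was 0.285. The cause of these changes was not tested. As knockout library 1 was not measured in this cluster, control library 1 added nothing to the genotype contrast of the block fit. That contrast rested on replicates 2 and 3. Cxcl14 there had means of 136 ± 129 and 11.1 ± 11.5 (-3.67 ± 1.43, edgeR adjusted p = 0.386), and with the replicate block its log2 fold change was -4.49 (edgeR adjusted p = 0.0363). The marrow stromal markers Lepr, at 100.4, 171 and 111 against 83.5 and 56.3, and Adipoq, at 0, 153 and 82.8 against 13.9 and 0.408, were on the whole lower in the knockout libraries too, and their part in the difference was not tested. Ccl3 had means of 5.57 ± 3.40 and 22.1 ± 7.92 in this cluster (1.97 ± 0.50, edgeR adjusted p = 0.362). The summed macrophage markers there were at 62.3, 23.7 and 49.2 in the control and 191 and 96.7 in the knockout libraries, groups that did not overlap either, and their part was not tested.

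In blood-derived classes Cxcr4 in T or NK-like cells was at 200.2, 211 and 138 in the control and 113, 24.4 and 66.4 in the knockout libraries (-1.45 ± 0.45, edgeR adjusted p = 0.751). The groups did not overlap, as for 12% of all genes tested there. Ccl5 in macrophage-like cells was at 49.2, 55.5 and 17.7 against 7.85, 23.00 and 9.81 (-1.49 ± 0.52, edgeR adjusted p = 1). Ccl4 in monocyte-like cells had means of 165 ± 63.00 and 88.7 ± 28.1 (-0.93 ± 0.39, edgeR adjusted p = 0.999). Ccl8 in neutrophil-like cells had means of 1.27 ± 1.68 and 9.32 ± 8.45 (2.14 ± 0.81, edgeR adjusted p = 1). The summed macrophage markers in neutrophil-like cells were at 166, 67.98 and 84.6 against 147, 265 and 186, and their part in the Ccl8 values was not tested. None of these passed the adjusted threshold. With no filter on low counts some comparisons above did pass it in edgeR's test, namely Pf4 and Cxcl14 in chondrocyte-like cells (adjusted p = 0.0197 and 0.00334), Ccl9 in osteoblast-like cells (0.0439), Cxcr4 in T or NK-like cells (0.0462) and Cxcl14 and Ccl3 in the Mmp9 cluster (5.7e-20 and 0.00015). For Cxcl14 in the Mmp9 cluster the groups overlapped, with 3 control and 2 knockout libraries. Its SE was 1.43 with the filter and 0.363 without it. Further members passed without the filter, among them Cxcl5 in the Mmp9 cluster (log2 fold change -9.34, edgeR adjusted p = 1.1e-28). Others were Ccl8 in osteoclast-like (-2.69, edgeR adjusted p = 1.8e-09) and Cxcl5 in pericyte-like cells (2.87, edgeR adjusted p = 2.0e-07). The share of all genes called in this setting is not given, so these calls do not show that members stand out. Without the filter Pf4 also passed as lower in T or NK-like cells (log2 fold change -1.73, edgeR adjusted p = 0.0284). It passed as higher in monocyte-like cells (1.68, edgeR adjusted p = 0.00718) and in the Mmp9 cluster (1.33, edgeR adjusted p = 0.0375).

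Leaving out knockout library 3, whose sex does not match the methods, left the count of members called at 0 in 13 of the 14 fits, and in dendritic-like cells, where 1 knockout library then remained, it was 2. The genes around these members gave no calls either. Of 26 genes of signalling downstream of the receptors (such as Gnai2, Dock2 and Rgs1), 15 to 26 were tested per fit, and 0 passed the adjusted threshold of edgeR's test in either direction. The same held for 9 relatives and modifiers, among them Ccl21a, Ccl27a and Cd74, and for 19 inflammatory inducers, among them Il1b, Tnf and Nfkbia. At an unadjusted p below 0.05 over the 13 classes, the signalling genes had 15 higher and 4 lower of 283 tests, the relatives and modifiers 3 higher and 1 lower of 73 tests and the inducers 5 higher and 4 lower of 203 tests, where 4.12% of all tests passed.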

How the data were processed

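Callus cells of 3 control and 3 knockout libraries were captured with a 10x Genomics 3′ kit. The deposited matrices hold raw UMI counts per gene and cell barcode, which the authors made with Cell Ranger (6.1.1 for replicate 1 and 6.1.2 for replicates 2 and 3 of both groups) on GRCm38. Replicates 1 and 2 list 55450 genes and replicate 3 lists 55357, and the 52081 shared by gene ID were used. Total UMIs ranged from 57626530 to 103784364 per library. Of 46944 barcodes, 44698 passed a minimum of 500 UMIs and of 200 genes and a maximum of 20% of UMIs from mitochondrial genes. The cells with the highest Scrublet scores were removed as doublets at 0.8% per 1000 cells (3046), since Scrublet's own threshold called none in 4 libraries. Cells were integrated with Seurat 5.3.0 and clustered with leidenalg 0.10.2 at resolution 0.8, with the 58 genes left out. Clusters were named from marker lists, and the naming rule and the minimum of 4 libraries for a leading class were set after the data were seen. UMIs were summed per class and library and tested with edgeR 4.0.16 (two-sided quasi-likelihood test, Benjamini-Hochberg over all genes), with DESeq2 1.42.0 as an alternative. The scripts were tested on simulated data. The members, gene lists and tests were chosen with earlier results of these data known. The text names the 16 ligands and 10 receptors with the highest leading-class means, the member with the smallest p in each class, and, chosen after their values were seen, other members for their roles. 1 member is not reported here. The results and the methods of the study give different numbers of mice, and the 6 libraries were used as labelled. P-values measure the spread between the libraries of a group, which were at most 3. Dendritic-like cells had 2 libraries a group. The Mmp9 cluster had 3 control and 2 knockout libraries, and the S100a8, S100a9 and Bglap cluster 2 control and 3 knockout libraries. The genotype is read from labels that name both Piezo3 and Piezo1.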

Additional observations from a re-analysis of the deposited data

How the results depend on the processing

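Under DESeq2, resolution 0.4 and 1.2, no integration, stricter cell filters, leaving out replicate 3 of both groups and leaving out replicate 1 of both groups (added after the data were seen, as this replicate has its own Cell Ranger version), the count of members called between genotypes stayed at 0 wherever a class of the same name was fitted. At resolution 0.4 and 1.2 and without integration, the Mmp9, Gdpd2 and Mmp13 cluster and the S100a8, S100a9 and Bglap cluster had no fit under the same name. Their members were not compared there. With no filter on low counts the count of members called was 3 in T or NK-like, chondrocyte-like, dendritic-like, monocyte-like and osteoclast-like cells and in the S100a8, S100a9 and Bglap cluster, 1 in neutrophil-like, 2 in osteoblast-like, 4 in pericyte-like cells and 8 in the Mmp9, Gdpd2 and Mmp13 cluster. The cause of these calls was not tested. The share of all genes called in this setting is not given, so the counts do not show that members stand out. In the Mmp9 cluster 14 of 48 members, and 9.33% of all genes, had an unadjusted p below 0.05 in edgeR's test without the filter. Leaving out 1 library at a time gave 0 to 2 in dendritic-like cells, where both values of 2 came without knockout replicate 2 or 3 and thus with 1 knockout library, assumed to vary like the others, and 0 in the other fits. With the replicate number as a block, 2 members were called in the Mmp9 cluster, Cxcl12 (log2 fold change -2.58, edgeR adjusted p = 0.0363) and Cxcl14, and 0 elsewhere. In that cluster the contrast of the block fit rested on replicates 2 and 3, as knockout library 1 was not measured. Deviations from the group means over all cells correlated at 0.44, 0.27 and -0.09 between libraries numbered 1, 2 and 3. The number goes with the processing (the Cell Ranger version for replicate 1, the gene list for replicate 3), but not every pair deviated together and no label ties the mice, so the fit without the block was kept. Of the 28 named members, 18 kept their leading class at resolution 1.2, 21 to 26 without 1 library, and 22 to 27 under the other alternatives. An unnamed cluster with other leading genes counted as a move. So Ackr4, Ccl24, Cx3cl1 and Cxcl12 counted as moved to a Mmp9 and Gdpd2 cluster with Wif1 (resolution 0.4) or Plxna2 (1.2) for Mmp13. Cxcl1, Ccl2, Ccl4 and Cx3cr1 were among those that moved, as was Ccl3, to a myeloid progenitor-like class at resolution 0.4 and 1.2.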
